A study of Bos taurus with 9 samples.

Results

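Bovine endometrial cells, which the labels call epithelial, were compared after carrying embryos from a LOWAA regime or control embryos. The comparison covered the 3 LOWAA and 3 control libraries of a series of 9, chosen by their group labels, and the other 3 libraries were HIGHGLUC. The cells were primary cells scraped from the luminal surface of the endometrium of 3 uteri in the early luteal stage, frozen, thawed and grown in serum-containing medium. Groups of 5 pre-conditioned morulae were laid on each monolayer on day 4 after fertilisation, and the cells were harvested on day 8, with 3 wells pooled for a sample. All groups, control included, carried embryos, and no library of cells without embryos entered the comparison. Control, HIGHGLUC and LOWAA are the treatment names of the labels, which give no concentrations. By their wording they stand for a glucose-rich and an amino-acid-poor regime. The labels do not tie a library to a uterus or a culture, so p-values measure the spread between these libraries, which may be in part technical.

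The endometrium answers an early bovine embryo chiefly through interferon tau, a type I interferon that the trophoblast secretes and that marks pregnancy to the mother. Type I interferon binds a receptor on the uterine cell and activates transcription factors, among them STAT2 and IRF9, which switch on a shared set of antiviral genes such as ISG15, the Mx GTPases and the IFIT family. Cells short of amino acids respond by a separate route, in which the kinase GCN2 raises translation of ATF4 and with it genes such as ASNS and CHAC1. In these libraries the embryos, not the endometrial cells, are what the labels describe as conditioned.

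Total exon reads per library were 2887097, 13969325 and 10330769 in control replicates 5, 9 and 13, and 10398399, 7877596 and 9248075 in LOWAA replicates 8, 12 and 15. A count of 0 thus allows up to 1.04 CPM (read counts scaled to the library's total) in control replicate 5 and 0.215 CPM in control replicate 9. Of 15 epithelial markers, the keratins KRT8, KRT18, KRT19 and KRT7 had means of 4487, 1995, 1627 and 158 CPM and the adhesion protein CDH1 had 102 to 141 CPM in every library, while EPCAM stood at 0.152 CPM and GRHL2 and CLDN7 had no read. Of 13 stromal fibroblast markers, the collagens COL3A1 and COL1A2 had means of 5103 and 2071 CPM. PDGFRB, S100A4, THY1 and TWIST1 stood at 6.44, 5.63, 5.05 and 1.34 CPM. Summed epithelial markers were 7861 to 8947 CPM in control and 8062 to 8520 CPM in LOWAA, and summed stromal markers were 11470 to 13607 and 11808 to 13590 CPM. The groups overlapped in both sums. In each group the lowest stromal sum stood above the highest epithelial sum, so the libraries carried markers of both cell types. Of 9 smooth muscle markers, CALD1 and TAGLN had means of 1065 and 312 CPM, while DES and MYH11 stood at 0.635 and 0.0482 CPM. Summed smooth muscle markers were 1443 to 1614 CPM in control and 1502 to 1555 CPM in LOWAA. Of 13 leukocyte markers 7 had no read in any of the 6 libraries, among them PTPRC, CD3E and ITGAM, but CD163 had 510 reads (7.36 to 12.9 CPM) and CD14 had 266 (3.36 to 7.31 CPM). Their sum was 13.3 to 17.3 CPM in control and 11.7 to 16.1 CPM in LOWAA. Of 8 endothelial markers 4 had no read, CDH5 and KDR included, while TEK had 72 reads, VWF 55 and PECAM1 25, with sums of 1.65 to 4.5 and 2.27 to 4.32 CPM. Of 16 embryo and trophectoderm markers listed, only 6 were in the deposited table, and 2 of these had no read. The embryo's own IFNT2 had 12 reads over all 6 libraries, while SOX15 had 140 (1.52 to 4.16 CPM). The sum of these markers was 3.22 to 5.2 CPM in control and 1.9 to 3.35 CPM in LOWAA. The part of other cell types in the results was not tested.

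Numbered in order, the libraries form 3 successive runs, each holding a library from every group. These runs are called sets and are control 5 with LOWAA 8 (set 1), control 9 with LOWAA 12 (set 2), and control 13 with LOWAA 15 (set 3). After removal of group means, control and LOWAA libraries of a set correlated at 0.380 to 0.583 across genes, against -0.503 to 0.206 for pairs from different sets, so both fits are given. Without sets, edgeR's quasi-likelihood test called 0 of 11839 genes at an adjusted p under 0.05, and 474 had an unadjusted p under 0.05. With the sets as a term, 19 genes passed on total exon reads, which is 0.16% of those tested. DESeq2 without sets called 4 (0.0338%): ERRFI1, PARP14, TXNIP and ZFP36. On unique exon reads, which leave out reads that match several places, 57 of 11700 passed with the sets (0.487%), 14 higher (0.12%) and 43 lower (0.368%), and all 19 were among them. In what follows, "rose" and "fell" mean that a gene passed in this last fit, the one with the most calls among the fits on all 9 libraries. "Higher" and "lower" give a direction only.

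Of the 57 genes 51 carried a symbol, 40 had no overlap between the 3 LOWAA and the 3 control libraries, and 56 moved in 1 direction in all 3 sets. Across all genes, 4.69% had every LOWAA library above every control library and 5.02% every LOWAA library below, while 16.2% were higher and 15.8% lower in all 3 sets. The calls depended on which libraries were present: 21 genes passed without control replicate 5, 12 without control replicate 9, 9 without LOWAA replicate 8 and 11 without LOWAA replicate 12. All 57 kept their direction in these fits, and 7 passed whichever of the 6 libraries was left out, among them RASL11B, ERRFI1, TRIB1 and cytb, which rose, and ATP8B4 and PARP14, which fell.

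**Figure D1:**
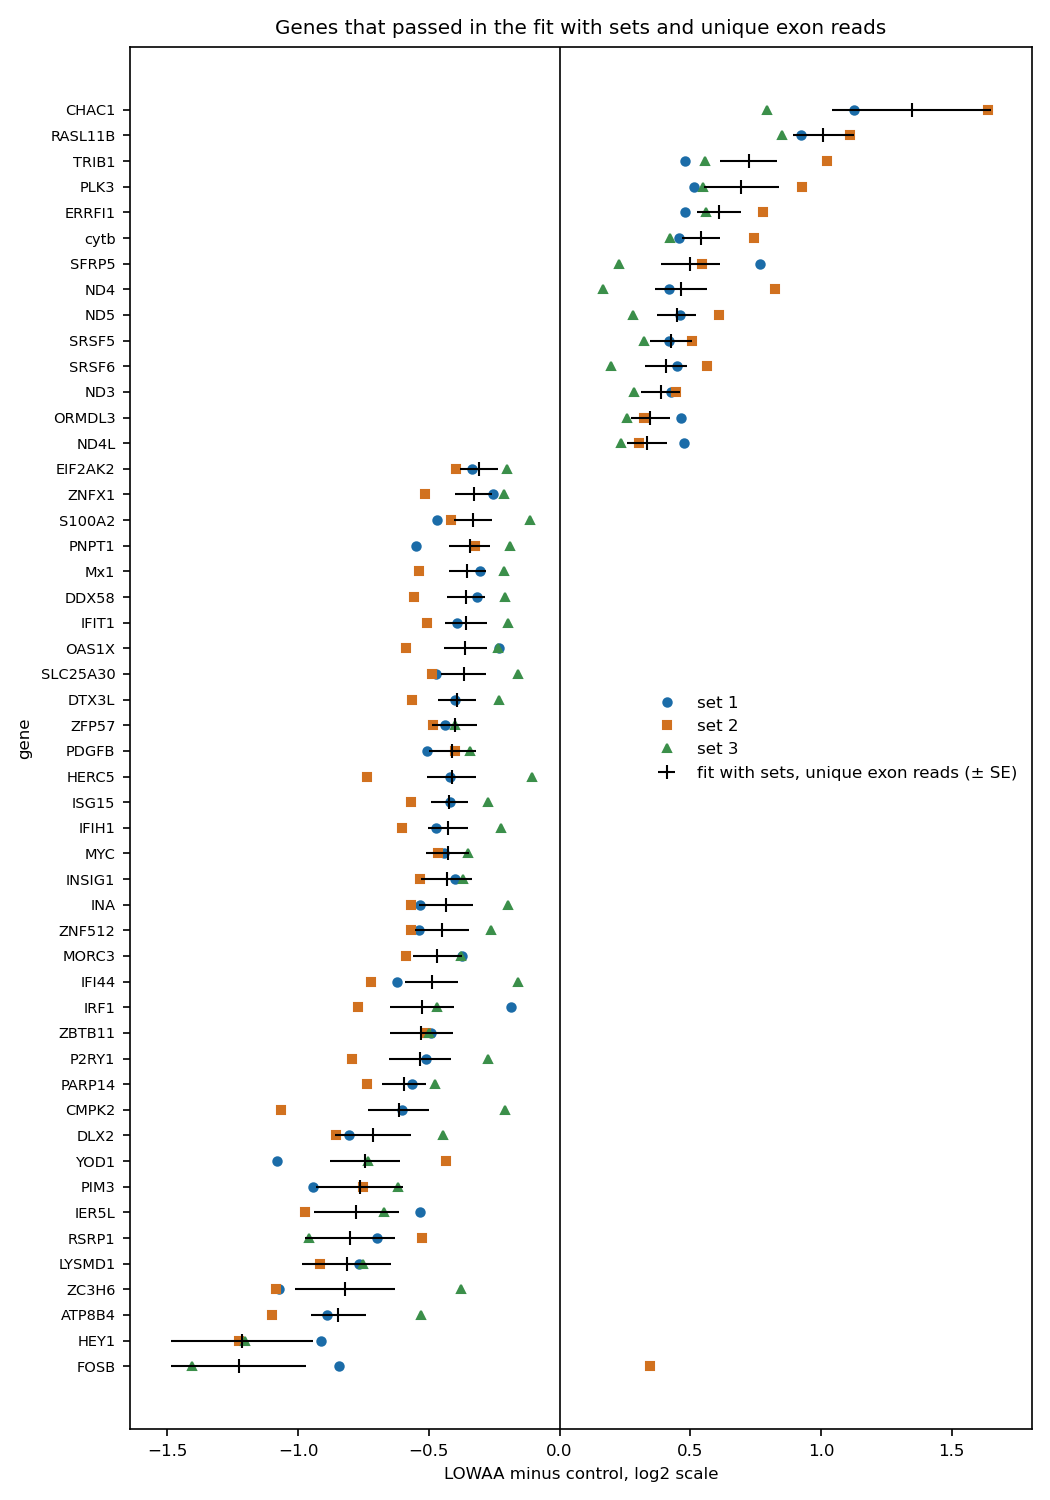
LOWAA minus control difference on the log2 scale for the genes named in the text that passed in the fit with sets and unique exon reads. Coloured points are the 3 sets (total exon reads) and black bars the fitted value ± SE; FOSB is the gene whose sets differ in sign.

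Genes of the interferon response were lower after LOWAA embryos. Of 45 list members tested, 44 were lower, with a median log2 difference of -0.32 against 0.00 for all genes, of which 49.1% were lower and 50.9% higher, and 40 were lower in all 3 sets. Groups did not overlap for 23 members, or 51.1% of the list, all with LOWAA lower, against 5.02% of all genes. Of the 45, 14 fell on unique exon reads with sets, where 0.368% of all genes fell, and none rose. On total exon reads with sets 5 of the 14 also passed, and without sets 0 of the 45 did. The list was chosen with earlier results of these data known. Whether its members vary independently was not tested, so the counts are a description only. The median was -0.33 in set 1, -0.46 in set 2 and -0.20 in set 3, so the sets differed in size and not in sign. In RNA from a whole culture, fewer responding cells and less RNA per cell cannot be told apart.

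PARP14, a mono-ADP-ribosyltransferase of the antiviral response (chromosome 1, 67613091 to 67659266, UMD3.1), had the smallest p of the list. It stood at 436, 462 and 458 CPM in control replicates 5, 9 and 13 and at 295, 277 and 329 CPM in LOWAA replicates 8, 12 and 15. Each control library lay above each LOWAA library, and the difference exceeded the spread in either group. PARP14 fell by 0.60 ± 0.08 (SE) on the log2 scale (edgeR adjusted p = 0.000701 with sets and unique reads). The fit without sets gave -0.59 ± 0.11 with an adjusted p of 0.711 over all genes in edgeR.

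DTX3L, a ubiquitin ligase that lies near PARP14 on chromosome 1 (67588919 to 67597019), had 283, 282 and 291 CPM in the control and 215, 191 and 248 CPM in the LOWAA libraries. It fell by 0.39 ± 0.07 on the log2 scale, with no overlap (edgeR adjusted p = 0.00994). ISG15, the ubiquitin-like modifier that is a classic sign of interferon tau in the bovine uterus, had 754, 928 and 664 CPM in control and 564, 626 and 549 CPM in LOWAA. It fell by 0.42 ± 0.07 (edgeR adjusted p = 0.0028), and its highest LOWAA library was under its lowest control library. HERC5, the ligase known in human cells to attach ISG15 to proteins, had 106, 107 and 108 CPM in control against 79.6, 64.2 and 101 CPM in LOWAA. Its control libraries were nearly equal while its LOWAA libraries spread widely, and it fell by 0.41 ± 0.09 (edgeR adjusted p = 0.0407).

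Sensors of foreign RNA fell as well. IFIH1, which recognises long double-stranded RNA, had 201, 244 and 223 CPM in control and 145, 161 and 191 CPM in LOWAA, a fall of 0.43 ± 0.08 (edgeR adjusted p = 0.00738). DDX58, the sensor RIG-I, had 558, 632 and 613 CPM against 449, 429 and 531 CPM, a fall of 0.36 ± 0.07 (edgeR adjusted p = 0.0218). ZNFX1, a helicase that binds viral RNA, had 736, 776 and 731 CPM against 617, 542 and 630.4 CPM, and EIF2AK2, the kinase PKR, had 299, 268 and 308 CPM against 237, 203 and 268 CPM. Groups did not overlap for the first 3 of these sensors, while for EIF2AK2 the highest LOWAA library equalled the lowest control library to within 1 CPM. In each of the 4, set 3 showed the least difference.

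Effectors downstream of the sensors were lower as well. Mx1, a GTPase that traps viral particles, had 1520.2, 2104 and 1726 CPM in control and 1231, 1451 and 1489.8 CPM in LOWAA, and it fell by 0.35 ± 0.07 (edgeR adjusted p = 0.0232). CMPK2, a mitochondrial nucleotide kinase (chromosome 11, 90042356 to 90057598), had 76.2, 86.9 and 75.7 CPM against 50.1, 41.4 and 65.4 CPM, and it fell by 0.62 ± 0.12 (edgeR adjusted p = 0.0254). Its difference was -1.06 in set 2 and -0.21 in set 3. RSAD2, the antiviral enzyme viperin, lies near it on that chromosome (90012629 to 90029927, UMD3.1) and had 581, 369 and 489 CPM against 393, 192 and 415 CPM. The groups of RSAD2 overlapped and it did not pass (log2 difference -0.56 ± 0.14, edgeR adjusted p = 0.221 with sets).

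IFIT1, IFI44, OAS1X and IRF1 made up the rest of the members that fell, each with an edgeR adjusted p between 0.042 and 0.0493. IFIT1, which binds foreign RNA ends, had 1153, 928 and 1155 CPM in control against 878, 653 and 1007 CPM in LOWAA. IRF1, a transcription factor at the head of part of the response, had 26.8, 27 and 24 CPM against 23.6, 15.7 and 17.3 CPM. The widest differences of the list belonged to MX2 (-0.85), OAS2 (-0.77) and IFIT3 (-0.75), named here for their size after their values were seen. None of these 3 passed, and PARP10, at 0.01, was the member that was not lower.

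**Figure D2:**
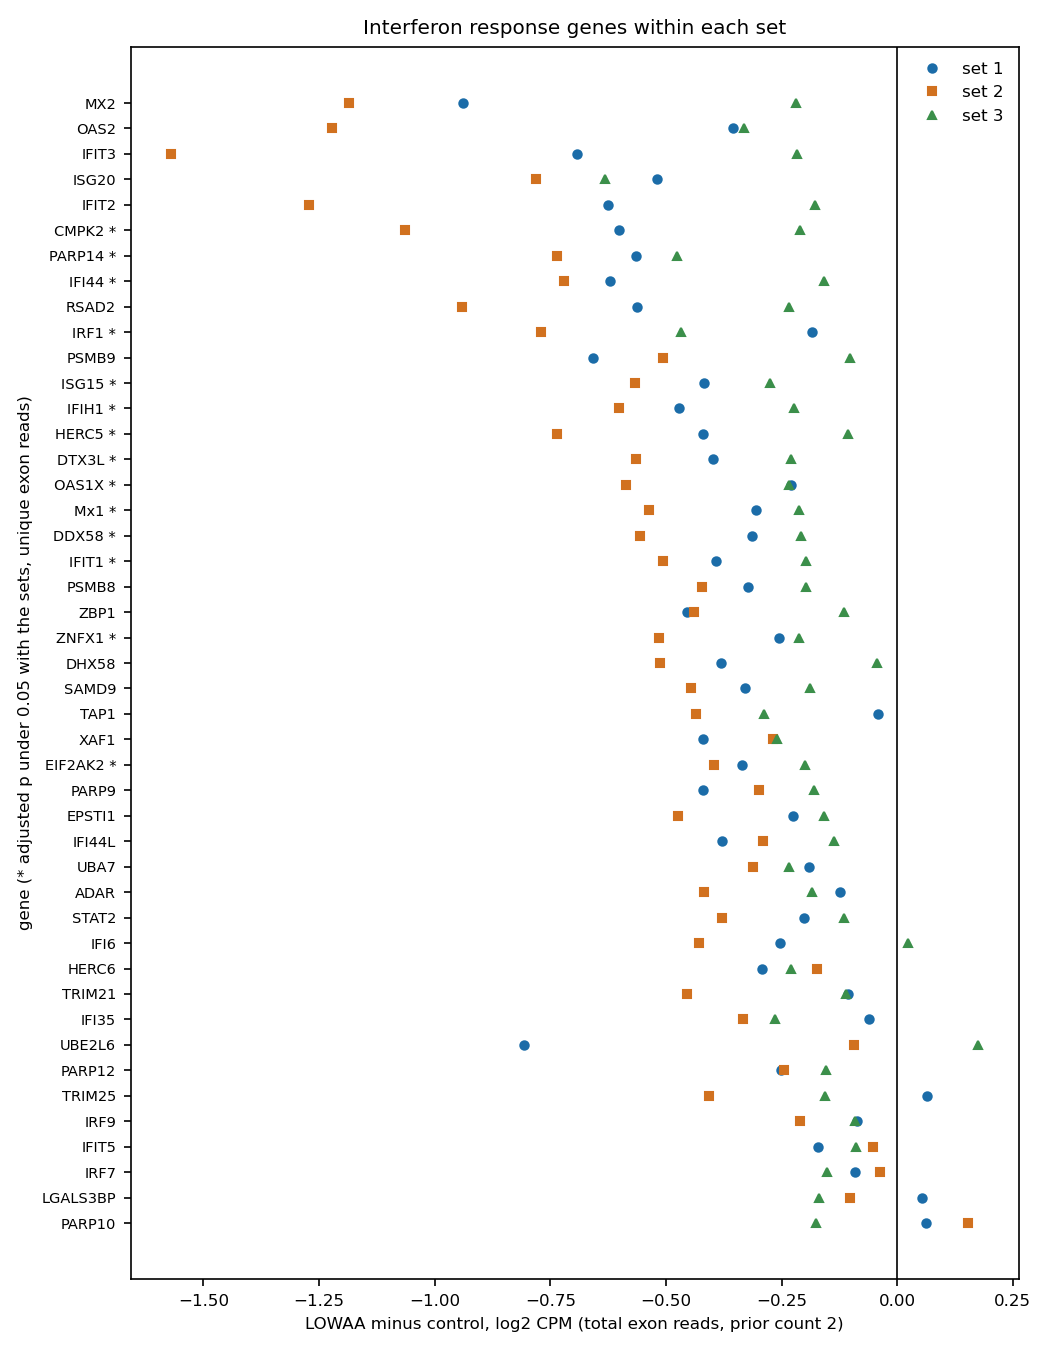
LOWAA minus control difference in log2 CPM (total exon reads) for the 45 tested interferon response genes, 1 point per set, ordered by the fitted difference. Most points lie left of 0, set 3 is usually nearest to it, and an asterisk marks the 14 genes that passed with sets and unique exon reads.

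Intron reads, which can come from unspliced transcripts, were lower too. Of the 28 list members with at least 300 intron reads over the 6 libraries, 27 were lower, with a median of -0.32 against -0.01 for all covered genes. RSAD2 had 258, 189 and 232 CPM of intron reads in control and 135, 62.6 and 81.5 CPM in LOWAA. That difference of -1.37 ± 0.18 with sets passed (edgeR adjusted p = 0.000294), unlike its exon reads, and was -1.27 ± 0.27 without sets (edgeR adjusted p = 0.267). ISG15 had only 263 intron reads, at 49.6, 59.1 and 62.6 CPM in control and 31.1, 27.6 and 21.5 CPM in LOWAA, and these passed with sets as well (-1.22 ± 0.26, edgeR adjusted p = 0.0399). Intron reads per library were 219124, 1643336 and 1192670 in control replicates 5, 9 and 13. In LOWAA replicates 8, 12 and 15 they were 912781, 1250936 and 914953. The value of ISG15 in control replicate 5 thus rested on 10 intron reads. Other intron differences are given without sets unless stated.

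Upstream in the pathway, 13 of 14 interferon receptors, kinases and regulators tested were lower, with a median of -0.04 and no gene that passed. SOCS3, a feedback inhibitor of cytokine signalling, had 2.47, 2.96 and 3.87 CPM in control and 1.76, 1.12 and 1.2 CPM in LOWAA. Its groups did not overlap, and its difference of -1.27 ± 0.32 did not pass (edgeR adjusted p = 0.0746 with sets). CXCL9, a chemokine that interferon gamma induces, had the opposite direction at 15.2, 17.9 and 13.2 CPM against 25.2, 20.7 and 19.7 CPM, and did not pass either (0.47 ± 0.13, edgeR adjusted p = 0.136).

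The interferon result held its direction without any single library, and its calls did not. The list median ranged from -0.27 to -0.39 with sets when 1 of the 6 libraries was left out. Its members that passed, however, numbered 3 when control replicate 5 was left out and 1 when control replicate 9 or LOWAA replicates 8 or 12 were. They numbered 16 without control replicate 13 and 17 without LOWAA replicate 15, against 14 with all libraries.

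Transcripts of the mitochondrial genome were higher after LOWAA embryos. All 13 protein-coding genes were higher, with a median of 0.29. Of them 5 rose, where 0.12% of all genes did. They were cytb, a subunit of complex III, and ND5, ND3, ND4L and ND4, subunits of complex I. All genes on the mitochondrial chromosome together took 3.13%, 2.72% and 4.07% of exon reads in control replicates 5, 9 and 13. In LOWAA replicates 8, 12 and 15 they took 3.57%, 3.39% and 4.52%. Within each set the LOWAA library had the larger share, but between sets the groups overlapped, for these shares and for all 13 genes. The 13 are processed from shared transcripts and are not independent.

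The gene cytb had 788, 605 and 1121 CPM in control and 1082, 1015 and 1503 CPM in LOWAA. Control replicate 13 stood above LOWAA replicates 8 and 12, so only the comparison within sets separated the groups. It rose by 0.54 ± 0.07 on the log2 scale with sets (edgeR adjusted p = 0.000195), against 0.52 ± 0.26 without them. ND5 had 1043, 915 and 1648 CPM against 1435, 1396 and 2002 CPM, a rise of 0.45 ± 0.07 (edgeR adjusted p = 0.00239). ND3 had 514, 397 and 601 CPM against 691, 541 and 732 CPM, a rise of 0.39 ± 0.07 (edgeR adjusted p = 0.0148). Respiratory chain genes of the nucleus did not move with them: 14 of 29 were higher and 15 lower, with none that passed. The median of the 13 moved to 0.15 when control replicate 9 or LOWAA replicate 15 was left out of the fit without sets, and to 0.53 when control replicate 13 was. With sets it ranged from 0.21 to 0.42, and the genes that passed numbered 2 when control replicate 5 or 9 was left out and 1 when LOWAA replicate 8 or 12 was. They numbered 7 without control replicate 13 and 4 without LOWAA replicate 15.

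A regulator of EGF receptor signalling and a small GTPase were among the other genes that rose. ERRFI1, an inhibitor that binds the EGF receptor and is switched on by it, had 108, 93.7 and 100.2 CPM in control and 149.9, 161 and 148 CPM in LOWAA. The groups were far apart relative to their spread, and ERRFI1 rose by 0.61 ± 0.08 (edgeR adjusted p = 0.000195). It had the smallest unadjusted p of any higher gene without sets, at 8.72e-05 in edgeR. RASL11B, a small GTPase related to Ras, had 13.8, 20.6 and 21.6 CPM against 26.3, 44.6 and 39.2 CPM. It rose by 1.01 ± 0.12 (edgeR adjusted p = 3.88e-05), with differences of 0.92, 1.11 and 0.85 in the 3 sets. Both were on a list of EGF receptor ligands and feedback genes, of whose 23 tested members no other passed, and the list's median was 0.02. Of all genes 0.12% rose. The list was chosen with earlier results of these data known, so the place of RASL11B on it shows no link to the EGF receptor.

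TRIB1, a pseudokinase that guides proteins to degradation, had 48.7, 40.5 and 72.4 CPM in control and 68, 82.6 and 107 CPM in LOWAA. LOWAA replicate 8 lay under control replicate 13, and TRIB1 rose by 0.72 ± 0.11 with sets (edgeR adjusted p = 0.00185). PLK3, a stress-responsive kinase, had 11.6, 9.01 and 11.9 CPM against 16.7, 17.4 and 17.5 CPM, with no overlap (edgeR adjusted p = 0.0254). PIM3, a kinase that favours survival and growth, went the other way, from 10.9, 12.7 and 8.82 CPM to 5.57, 7.44 and 5.66 CPM, and fell by 0.77 ± 0.16 (edgeR adjusted p = 0.0295). Its intron reads were lower as well, at -0.58 ± 0.20.

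Among immediate early genes MYC and FOSB fell, out of 26 tested, where 0.368% of all genes fell. MYC, the growth-promoting transcription factor, had 159, 170.2 and 143 CPM in control and 117, 123 and 112 CPM in LOWAA. No library of 1 group reached the other, and MYC fell by 0.43 ± 0.08 (edgeR adjusted p = 0.0139), with differences of -0.44, -0.46 and -0.35 in the sets. FOSB, a subunit of AP-1, rested on set 3, with 24 CPM in control replicate 13 and 8.92 CPM in LOWAA replicate 15. Its other 4 libraries lay between 0.634 and 1.41 CPM, at or near the level of 3 reads, and set 2 had the opposite sign. ZFP36, which speeds the decay of AU-rich messages, had 161, 142 and 194 CPM against 75.7, 93.4 and 109.8 CPM without overlap. It did not pass (-0.83 ± 0.24, edgeR adjusted p = 0.413 with sets), although DESeq2 without sets called it. SRF, the factor that drives many immediate early genes, was at 32.1, 34.4 and 33.1 CPM against 43.9, 41.2 and 43.2 CPM and did not pass (edgeR adjusted p = 0.115 with sets).

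ATP8B4, a member of the family that moves phospholipids across membranes, had 59.9, 112 and 59.5 CPM in control and 32.3, 52 and 41.1 CPM in LOWAA and fell by 0.85 ± 0.10 (edgeR adjusted p = 9.25e-05). In HIGHGLUC replicates 6, 10 and 14 it had 31.6, 58.4 and 45.8 CPM. Its LOWAA minus HIGHGLUC difference was -0.10 (edgeR adjusted p = 0.849 with sets and unique reads). IER5L, a relative of the immediate early gene IER5, had 12, 11.9 and 11.2 CPM against 8.21, 5.95 and 6.96 CPM (edgeR adjusted p = 0.0274). YOD1, a deubiquitinase, had 31, 19.5 and 18.8 CPM against 14.6, 14.4 and 11.2 CPM and fell by 0.74 ± 0.13 (edgeR adjusted p = 0.00738). These 3 had no overlap between groups.

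**Figure D3:**
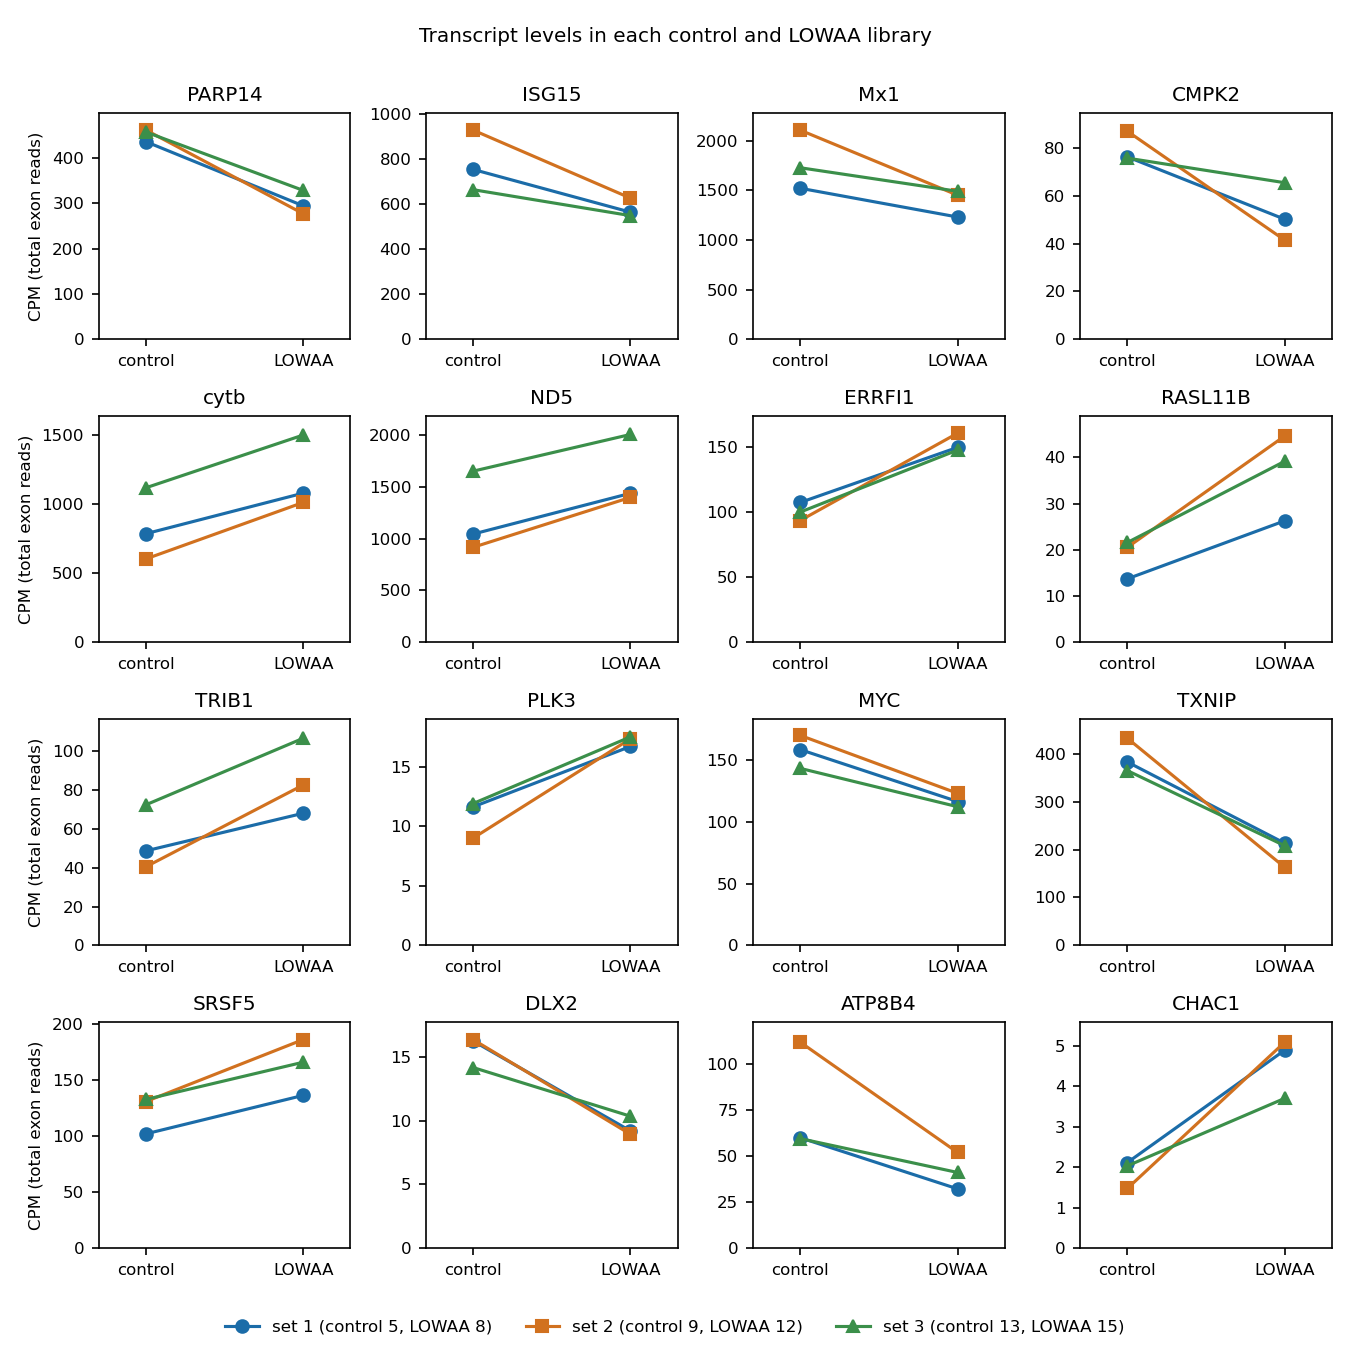
CPM of total exon reads for 16 genes in the control and LOWAA libraries, with a line joining the 2 libraries of each set. Each line runs downward for PARP14, ISG15, Mx1, CMPK2, MYC, TXNIP, DLX2 and ATP8B4 and upward for the other 8 genes; for cytb, ND5 and TRIB1 the groups overlap although every set rises.

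Several regulators of transcription fell. DLX2, a homeobox factor, had 16.2, 16.3 and 14.1 CPM in control and 9.19, 8.93 and 10.3 CPM in LOWAA, a fall of 0.71 ± 0.14 (edgeR adjusted p = 0.0218). It was the 1 call among 16 homeobox genes tested, where 0.368% of all genes fell, and the list's median was 0.00. HEY1, a target of Notch, had 3.88, 4.36 and 4.55 CPM against 1.95, 1.74 and 1.85 CPM. It fell by 1.21 ± 0.27 (edgeR adjusted p = 0.0407), a call that was lost whichever of the 6 libraries was left out, and 12 of 16 Notch pathway genes were lower. ZFP57, which guards imprinted methylation in the mouse and human, had 93.8, 90.2 and 79.8 CPM against 69.2, 64.4 and 60.5 CPM and fell by 0.40 ± 0.09 (edgeR adjusted p = 0.0291). Of its reads 92.2% were unique, so a part may come from related sequences.

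MORC3, a chromatin ATPase, and the zinc finger genes ZBTB11 and ZNF512 fell on exon reads while their intron reads did not. MORC3 had 71.9, 87.6 and 73 CPM of exon reads in control and 55.5, 58.3 and 56.2 CPM in LOWAA (edgeR adjusted p = 0.0187). Its intron reads were 84.3, 96.5 and 93.9 CPM against 119.8, 129 and 118 CPM, higher in every LOWAA library (0.39 ± 0.19). ZBTB11 had an exon difference of -0.53 ± 0.12 (edgeR adjusted p = 0.0429) and an intron difference of 0.53 ± 0.24.

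The splicing factors SRSF5 and SRSF6 had exons higher and introns lower. SRSF5 had 102, 131 and 133 CPM of exon reads in control and 137, 186 and 166 CPM in LOWAA, and rose by 0.43 ± 0.08 (edgeR adjusted p = 0.00994). SRSF6 had 221, 273 and 275 CPM against 301, 403 and 315 CPM, and rose by 0.41 ± 0.08 (edgeR adjusted p = 0.0153). Intron reads of SRSF6 were 575, 612 and 552 CPM in control and 456, 447 and 490.3 CPM in LOWAA, lower in each LOWAA library (-0.32 ± 0.18), and those of SRSF5 had a difference of -0.24 ± 0.19. Of 21 SR factors and their kinases these 2 passed, where 0.12% of all genes rose. RSRP1, another serine- and arginine-rich protein, fell by 0.80 ± 0.17 from 14.1, 14.6 and 15.2 CPM to 8.6, 10 and 7.72 CPM (edgeR adjusted p = 0.0315).

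Of the 57 genes 26 had at least 300 intron reads. Exon and intron differences had the same sign in 19 of the 23 that fell and in 1 of the 3 that rose, while 51.7% of all 4293 covered genes had the same sign. Tested on intron reads alone, 0 of 9713 genes passed without sets in edgeR, 667 had an unadjusted p under 0.05, and 14 passed with sets (0.144%). Whether intron reads of a set deviate together was not checked. HK2, which commits glucose to glycolysis, had 171, 178 and 168 CPM of exon reads in control and 156, 188 and 169 CPM in LOWAA, a difference of -0.01 ± 0.09. Its intron reads were 69.4, 39.2 and 47.4 CPM against 106, 121 and 102 CPM with no overlap, a difference of 1.3 ± 0.24 with sets (edgeR adjusted p = 0.0156). The value in control replicate 5 rested on 14 reads.

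CD44, the hyaluronan receptor, had intron reads of 154, 137 and 166 CPM in control and 295, 311 and 251 CPM in LOWAA, with an exon difference of -0.02 ± 0.09. IGFBP7, a secreted binding protein of the endometrium, had 357, 301 and 264 CPM against 636, 577 and 565 CPM, with an exon difference of 0.01 ± 0.16. IFRD1, a transcriptional co-regulator, had 89.2, 81.6 and 123 CPM against 199, 259 and 193 CPM, with an exon difference of 0.14 ± 0.17. All 3 passed on intron reads with sets, with an edgeR adjusted p from 0.014 to 0.0245. HPSE, the heparan sulphate cleaving enzyme, had 19.8, 66.6 and 54.1 CPM of intron reads against 77.6, 204 and 88.3 CPM (edgeR adjusted p = 0.00689 with sets), and its exon reads had a difference of 0.42 ± 0.10 that missed the threshold (edgeR adjusted p = 0.0685). Control replicate 5 held only 219124 intron reads, so its intron values rest on fewer reads than those of the other libraries. The share of intron reads was 7.05% to 10.5% in control and 8.07% to 13.7% in LOWAA libraries. The library kit named in the labels does not mark strand, so reads from a transcript on the other strand cannot be told from intron reads.

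**Figure D4:**
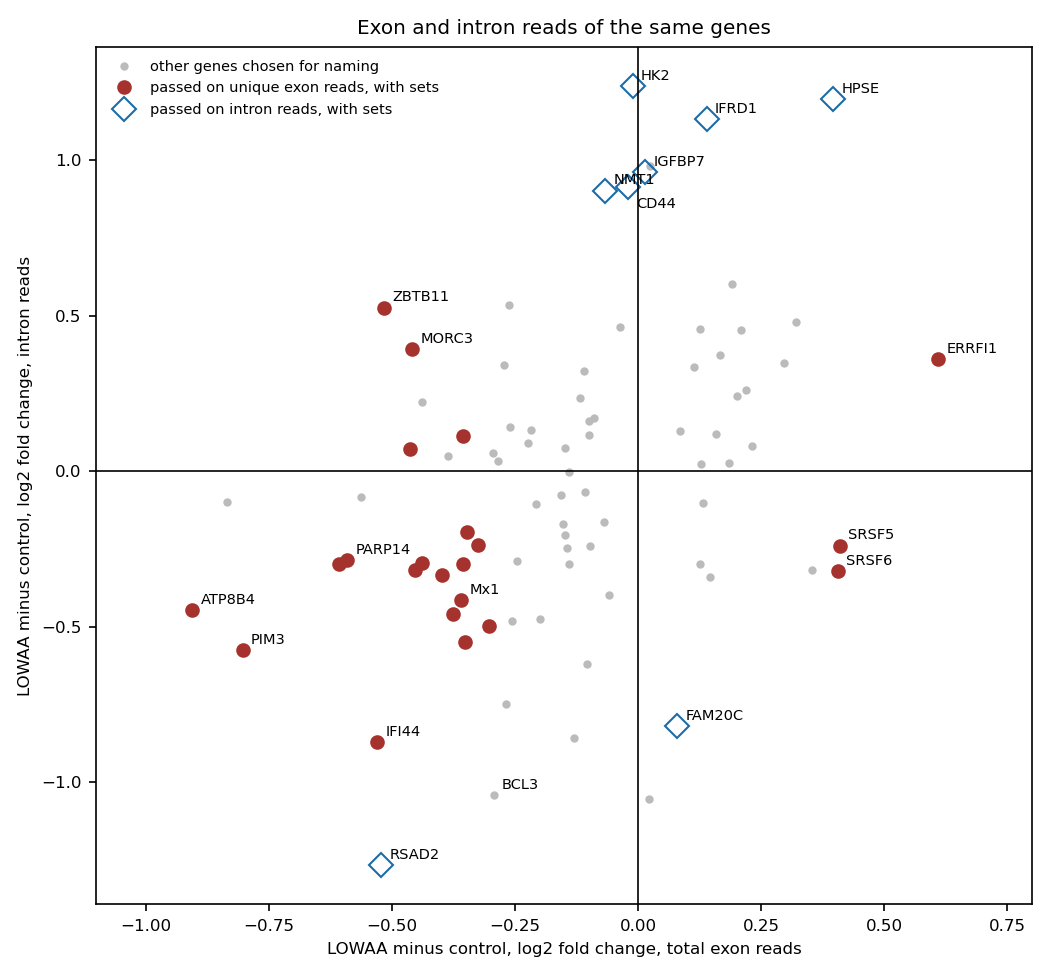
Log2 fold change of LOWAA over control from total exon reads (horizontal) and from intron reads (vertical), without sets, for named genes with at least 300 intron reads. Filled circles passed on unique exon reads with sets and open diamonds on intron reads with sets; HK2, CD44 and IGFBP7 lie near 0 on the horizontal axis and near 1 on the vertical axis.

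Genes that answer to nutrients moved singly. TXNIP, an arrestin that restrains glucose uptake and rises with glucose, had 383, 432 and 365 CPM in control and 213, 163 and 208 CPM in LOWAA. Each LOWAA library was well under each control library, and the difference was -1.01 ± 0.19 without sets. It did not pass in edgeR (adjusted p = 0.201 with sets and unique reads), while DESeq2 called it without sets, and the authors' deposited table gives a fold change of -2.00 with an FDR corrected p of 2.4e-08. CHAC1, an enzyme that breaks down glutathione and a target of ATF4, had 2.12, 1.48 and 2.03 CPM against 4.89, 5.08 and 3.7 CPM. It rose by 1.35 ± 0.30 (edgeR adjusted p = 0.0407), at levels where a library holds few reads of it.

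CHAC1 was the 1 gene that passed on a list of the amino acid response, where 0.12% of all genes rose. Of 29 genes of that list tested, ATF4 included, 14 were higher and 15 lower, with a median of -0.01. On unique exon reads the median was 0.05, and the set medians on total exon reads were 0.116, 0.004 and 0.053. In all 3 sets 10 of the 29 were higher and 3 lower, where all genes had 16.2% and 15.8%. ATF4 itself had 329, 326 and 309 CPM in control and 345, 373 and 348 CPM in LOWAA, and ASNS, which makes asparagine, had 68.1, 72.9 and 66.9 CPM against 84.7, 75.3 and 74 CPM. Neither gene had overlapping groups, and neither passed (0.15 ± 0.07 and 0.16 ± 0.08, edgeR adjusted p = 0.493 and 0.587 with sets). In 5 of the 29, or 17.2%, all LOWAA libraries were above all control libraries, against 4.69% of all genes. Amino acid transporters (11 of 20 higher), tRNA synthetases (12 of 19) and nutrient sensing by mTORC1 (11 of 26) had medians of 0.01, 0.03 and -0.03, with no gene that passed.

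Genes of cholesterol synthesis and uptake were lower in 22 of 28 cases, with a median of -0.10, and 11 of the 12 with enough intron reads were lower there too. Without control replicate 9 the median was 0.0021, and without LOWAA replicate 15 it was -0.04. INSIG1, which holds the sterol sensor in the endoplasmic reticulum, had 75.8, 103 and 84.8 CPM in control and 57.4, 71 and 65.6 CPM in LOWAA. It was the 1 member that fell (-0.43 ± 0.10, edgeR adjusted p = 0.0425), where 0.368% of all genes fell. ORMDL3, which limits sphingolipid synthesis, rose by 0.35 ± 0.07 from 157, 157 and 149 CPM to 216, 197 and 179 CPM (edgeR adjusted p = 0.0291). SLC25A30, a carrier of the inner mitochondrial membrane, fell by 0.37 ± 0.09 (edgeR adjusted p = 0.0494), with groups that overlapped.

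Secreted factors and receptors gave a few calls. SFRP5, a secreted Wnt antagonist, rose from 22.6, 23.2 and 24.2 CPM to 38.6, 33.8 and 28.4 CPM (0.50 ± 0.11, edgeR adjusted p = 0.0407). It was the 1 call among 25 Wnt modulators, where 0.12% of all genes rose. PDGFB, a growth factor for stromal cells, fell by 0.41 ± 0.09 from 67, 52.7 and 46 CPM to 47.1, 39.9 and 36.2 CPM (edgeR adjusted p = 0.0295). P2RY1, a receptor for extracellular ADP, had 31.7, 26 and 24.8 CPM against 22.2, 14.9 and 20.5 CPM, and S100A2, a calcium-binding protein, had 562, 389.9 and 321 CPM against 406, 293 and 296 CPM. Both fell (edgeR adjusted p = 0.0407 and 0.0375), and the groups of PDGFB and S100A2 overlapped. Others that fell were PNPT1, an RNA-degrading enzyme of mitochondria, INA, a neurofilament relative, LYSMD1 and ZC3H6, by 0.34 to 0.82.

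Chaperones of the endoplasmic reticulum were higher in 16 of 20 cases with a median of 0.08 and medians of 0.08, 0.09 and 0.11 in the sets. Of the 20, 12 were higher in all 3 sets, where all genes had 16.2%, while 1 had separate groups with LOWAA higher, 1 with LOWAA lower, and none passed. The median was 0.04 without control replicate 9 or LOWAA replicate 15, and 0.14 and 0.15 without control replicate 5 and LOWAA replicate 12. Cell cycle genes were higher in 27 of 34 cases with a median of 0.08, none had separate groups, and set 2 had the opposite sign. Ribosome biogenesis genes were higher in 17 of 27 cases, 10 of them in all 3 sets, with a median of 0.03. Glycolysis (6 of 18 higher), uterine regulators such as steroid receptors (6 of 18), prostaglandin enzymes and receptors (3 of 11), collagens and matrix (11 of 24) and heat shock genes (8 of 18) had medians between -0.07 and -0.01 and no call.

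**Figure D5:**
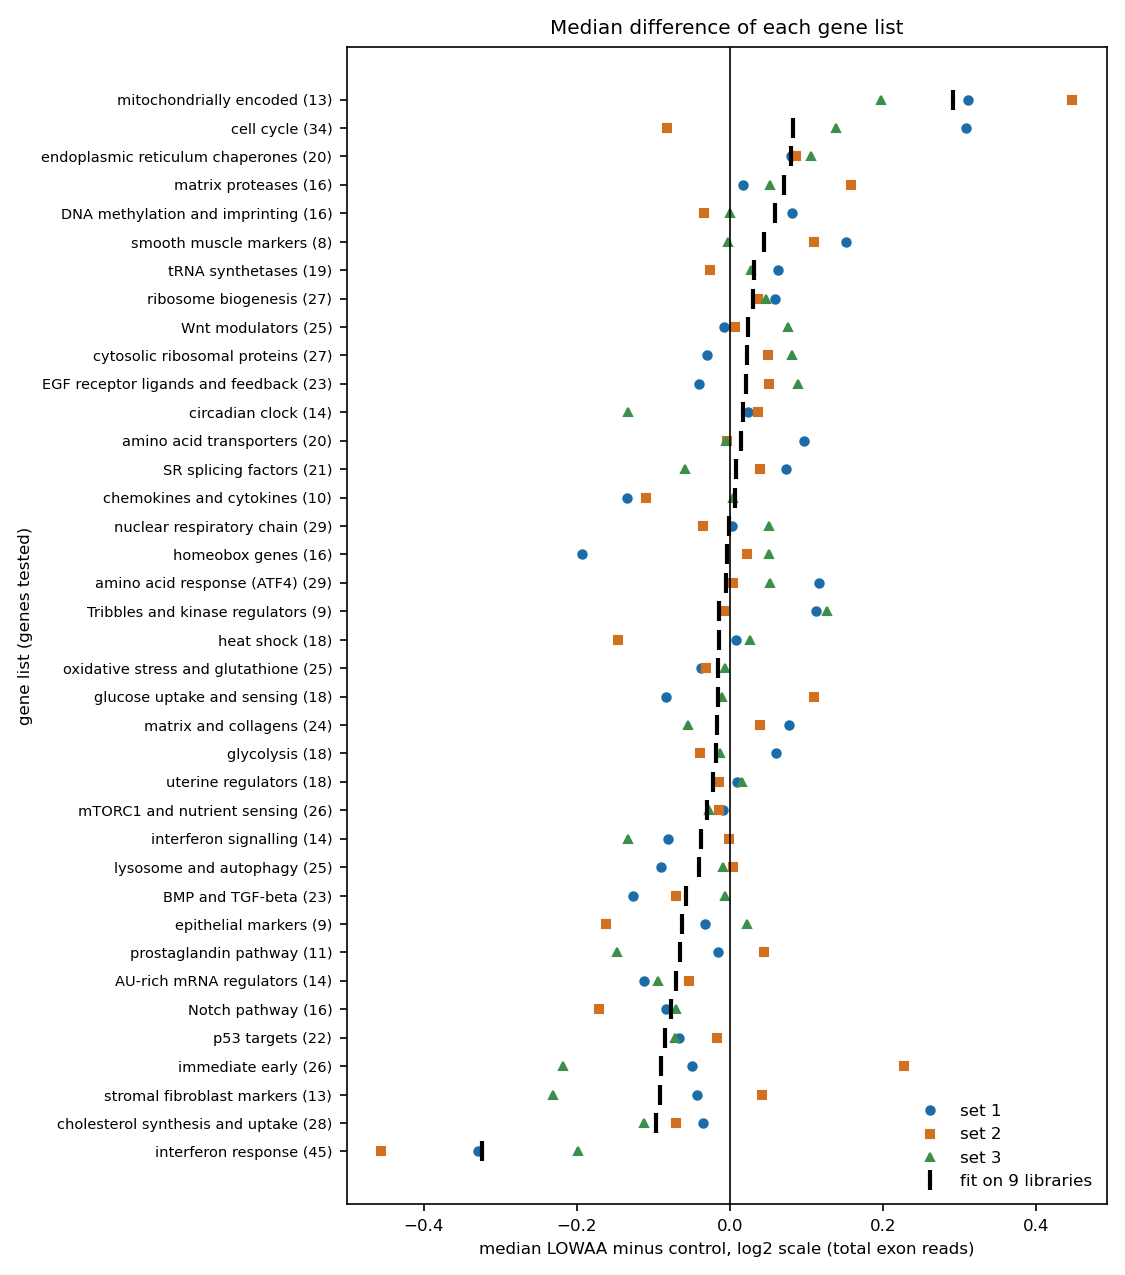
Median LOWAA minus control difference (log2 scale, total exon reads) of each gene list with at least 8 tested genes, from the fit on 9 libraries (black) and within each set (coloured). The interferon response at -0.32 and the mitochondrially encoded genes at 0.29 lie apart from the other lists, whose medians fall between -0.10 and 0.08.

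LOWAA and HIGHGLUC were compared directly to see which of these differences separated the 2 regimes, with no control library in the contrast. Without sets 0 genes passed in edgeR and 376 had an unadjusted p under 0.05. With sets and unique exon reads 36 genes passed (0.308%), 15 higher and 21 lower in LOWAA. No interferon response gene was among them: 36 of 45 were lower in LOWAA than in HIGHGLUC, with a median of -0.07. ISG15 had 591, 659.9 and 582 CPM in HIGHGLUC replicates 6, 10 and 14, near the LOWAA values, and its LOWAA minus HIGHGLUC difference was -0.08 (edgeR adjusted p = 0.825). The mitochondrially encoded genes likewise had a median of 0.05 and no call.

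Among the growth and signalling genes described above, MYC, TRIB1 and PIM3 differed between the regimes and ERRFI1 and RASL11B did not pass. MYC had 195, 155 and 145 CPM in HIGHGLUC and was lower in LOWAA, with a difference of -0.49 (edgeR adjusted p = 0.00772). TRIB1, at 39.7, 57.8 and 78.1 CPM in HIGHGLUC, was higher in LOWAA by 0.57 (edgeR adjusted p = 0.0122), and PIM3 was lower, with a difference of -0.84 (edgeR adjusted p = 0.0122). ERRFI1 and RASL11B had differences of 0.31 and 0.44 (edgeR adjusted p = 0.105 and 0.0874). By list, 0 of 23 EGF receptor ligands and feedback genes were called higher in LOWAA and 1 lower. Of 9 Tribbles and kinase regulators 1 was higher and 1 lower. Of all 11700 genes tested, 15 were called higher and 21 lower.

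The authors' deposited table compares the same groups with a proportion-based test on normalised values and calls 77 of 24596 genes at a corrected p under 0.05 (0.313%), 35 higher and 42 lower. Of these, 15 were among the 57, which is 19.5% of the authors' genes and 26.3% of the 57, and all 15 had the same direction. PARP14, ERRFI1, DLX2 and MYC were among the shared genes, while ISG15, cytb and ATP8B4 were not.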

How the data were processed

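RNA was sequenced from 9 cultures of bovine endometrial epithelial cells as single reads of 50 bp, per the labels' protocols. Bowtie2, HTSeq 0.5.4p2 and genome build UMD3.1 are named, per the submitters' processing notes, without the role of each. The deposited table holds 24596 genes in 231 columns, of which 45 were read and 157 columns of library values were not. Per the file headers, total exon, unique exon, intron and exon-exon reads are raw counts per gene. The authors' fold change is a score whose sign gives the direction, and the p-value columns deposited by the authors hold a proportion-based test and its FDR correction.

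Genes were kept with filterByExpr (minimum count 10), TMM-scaled and compared by robust quasi-likelihood fits in edgeR 4.0.16 (R 4.3.3), all 9 libraries in 1 fit with the group as the only term, and Benjamini-Hochberg adjustment over all tested genes at 0.05. SE is the size of the log2 difference over the root of F. CPM use TMM-scaled libraries, except for markers. Set differences are of log2 CPM with a prior count of 2. Intron results need at least 300 intron reads over the 6 libraries, apart from the tests on all genes. Fits were tested on simulated data.

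The sets come from runs of library numbers in the titles, whose meaning the labels do not give. All 3 control and LOWAA pairs of a set correlated above 0.1, on unique exon reads at 0.245 to 0.425 against -0.353 to -0.044 otherwise, so the numbers were taken to pair these libraries and the fit with sets is printed beside the main one. With HIGHGLUC replicate 10, total exon reads gave 0.047 (control replicate 9) and 0.022 (LOWAA replicate 12). Pairs of HIGHGLUC libraries from different sets reached 0.342 with control and 0.421 with LOWAA. On total exon reads the HIGHGLUC libraries thus did not all follow the sets. On unique reads all pairs of a set with HIGHGLUC libraries gave at least 0.198, and pairs from different sets at most 0.032. Without sets the fit had 6 residual degrees of freedom and a biological coefficient of variation of 0.171, and with sets and unique reads 4 and 0.0722.

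The groups, the 41 gene lists and the alternatives were chosen with earlier results of these data known. Named genes needed a symbol and a mean of 2 CPM. They were, per direction, the 8 with the smallest p without sets, up to 15 that passed with sets on total or on unique reads, calls of DESeq2 1.42.0, up to 4 of each list with the smallest p, and the 8 with the smallest p on intron reads. Others that passed with sets and unique reads were named after their values were seen. Limits from a count of 0 use 3 reads and cover counting error only. Alternatives were other scaling, filters, tools, reads and libraries. Some results are not reported here.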

Additional observations from a re-analysis of the deposited data

Results flagged for a closer look

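For 13 genes named in the report, the LOWAA and HIGHGLUC groups differed from each other at an edgeR adjusted p under 0.05 in the fit with sets and unique exon reads. Lower in LOWAA than in HIGHGLUC were PIM3 (log2 difference -0.84), IER5L (-0.78), DLX2 (-0.74), YOD1 (-0.72), PDGFB (-0.51), MYC (-0.49), BCL3 (-0.46) and ZFP57 (-0.39). Higher in LOWAA were CXCL9 (0.74), HPSE (0.72), TRIB1 (0.57), SRSF5 (0.46) and SRSF6 (0.35). Of these, BCL3, CXCL9 and HPSE did not pass against control. BCL3, a regulator of NF-kappa B, had 28.6, 34.4 and 29.2 CPM in control, 22.1, 29.6 and 24 CPM in LOWAA and 34.1, 36.4 and 32.8 CPM in HIGHGLUC, and CXCL9 had 14.8, 14.7 and 9.83 CPM in HIGHGLUC. None of the 13 passed in the fit without sets.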

How the results depend on the processing

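Against control, 0 genes passed without sets in edgeR on total, unique or intron reads, with other size factors, without the filter, with 6 libraries or in limma-voom, and 4 passed in DESeq2 (ERRFI1 higher and PARP14, TXNIP and ZFP36 lower). With the sets as a block, 19 passed on total reads, 57 on unique reads, 14 on intron reads, 25 with 6 libraries, 40 in DESeq2 and 16 in limma-voom. On unique reads with the block, tools and libraries added after seeing the data gave 46 in DESeq2, 26 in limma-voom and 50 with 6 libraries, and 23 of the 57 passed in edgeR, DESeq2 and limma-voom alike. Against HIGHGLUC, 0 passed without the block, 17 with it and 36 with it on unique reads. Every gene said to have risen or fallen against control thus passed in edgeR only with the block.

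Leaving out control replicates 5, 9 and 13 and LOWAA replicates 8, 12 and 15 in turn gave 8, 7, 28, 6, 2 and 26 genes with the block on total reads and 21, 12, 63, 9, 11 and 77 on unique reads. Leaving out HIGHGLUC replicates 6, 10 and 14 gave 30, 39 and 12, and 68, 73 and 53. Without the block the range was 0 to 1. Intron reads turned the direction of SRSF5 (-0.24), SRSF6 (-0.32), HK2 (1.24), CD44 (0.91), MORC3 (0.39), ZNF512 (0.071), SLC25A30 (0.11), ZBTB11 (0.53) and CLK2 (0.34), and the cause was not tested. Leaving out 1 library gave -0.085 to 0.054 for HK2, -0.089 to 0.26 for IFRD1, -0.12 to 0.18 for IGFBP7, -0.090 to 0.032 for CD44 and -3.57 to 2.07 for FOSB. List medians moved by less than the spread between sets in 113 of 114 comparisons of scaling, reads or block, and in 181 of 228 that left out 1 library; the other 47 moved by more. Control replicate 5 is the shallowest library and limits calls of genes under about 1 CPM.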

Other observations

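A further 4 genes named by the rule did not pass in the edgeR fits with or without sets. ADAMTS1, a matrix protease that the ovary and uterus express, had 65.6, 117 and 111 CPM in control and 173, 259 and 172 CPM in LOWAA, a difference of 1.04 ± 0.26 on the log2 scale with sets and unique reads (edgeR adjusted p = 0.346). BHLHE40, a repressor that takes part in the circadian clock, had 180.2, 167 and 149.7 CPM against 202, 250.5 and 185 CPM (0.37 ± 0.09, edgeR adjusted p = 0.1 with sets). CLK2, a kinase that phosphorylates SR splicing factors, had 44.1, 46.6 and 40.8 CPM of exon reads against 36.1, 35.8 and 37 CPM (-0.27 ± 0.09), and its intron reads had a difference of 0.34 ± 0.21. PFKFB3, which speeds glycolysis, had 38.1, 29 and 32.4 CPM against 45.5, 54.8 and 35.5 CPM, with groups that overlapped (0.48 ± 0.13, edgeR adjusted p = 0.166 with sets). PFKFB3 rested chiefly on set 2, whose difference was 0.91.

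Cell cycle genes were higher in LOWAA than in HIGHGLUC in 34 of 34 cases, with a median log2 difference of 0.35 and no gene that passed. Of all 11839 genes 5930 were higher in LOWAA. Against control, 27 of the 34 were higher with a median of 0.08, and the set medians were 0.31, -0.08 and 0.14. Whether the 34 vary independently was not tested.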
